A study of Drosophila melanogaster with 11 samples.

Results

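The genes of ecdysteroid synthesis and clearance were followed in whole third-instar larvae of Drosophila melanogaster in which heterochromatin protein 1 (HP1) was targeted by RNA interference. The 7 genes were spok, nvd, dib, phm, sad, shd and Cyp18a1, and their members were all probesets that the platform annotation assigns to 1 of these genes and to no other. This gave 9 probesets of the 18769 tested, and 7 genes of the 11983 named by a probeset of their own. Cyp18a1 and shd had a pair of probesets each, and every other gene had 1. The gene known as phm is listed under the symbol phtm in the current annotation, and the symbol Phm there belongs to a different gene.

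Ecdysteroids are the steroid hormones that time moulting and metamorphosis in insects. Larvae make ecdysone from dietary sterol in the prothoracic gland, a part of the ring gland, and peripheral tissues such as fat body, gut and Malpighian tubules convert it to the active hormone, which binds the receptor formed by EcR and usp. Cytochrome P450 enzymes carry out most of the steps, and a further P450 inactivates the hormone.

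All larvae were in a y w background. The 6 groups were males and females of 3 genotypes. The first genotype, y w; + /+; +/act-Gal4, carried the driver alone, in which the Actin promoter directs the yeast activator Gal4 broadly, and is called the act-Gal4 control. The second, y w; + /+; +/P, carried the RNAi transgene alone and is called the P control; P was taken to be the HP1-21 line that the study's design describes. The third, labelled +/P-act, carried both and is called P/act-Gal4. Each group had 2 arrays except P/act-Gal4 females, which had 1, so 11 arrays were used, 6 of males and 5 of females. The design speaks of a pair of independent larval populations, but the labels tie no array to either, so the p-values measure the spread between arrays of a group, part of which may be technical. No age within the instar was given.

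Values are log2 of the deposited intensities, and an adjusted p under 0.05 from limma is called a change. The medians of the arrays lay between 3.76 and 3.97, and arrays of 1 group correlated at 0.994 to 0.998. The 6 Y-linked probesets on the 5 female arrays, where no Y chromosome is present, gave a 90th percentile of 3.04, which is used here as the background level. The HP1 probeset fell by 0.53 ± 0.0943 (SE) in P/act-Gal4 males (adjusted p = 0.00124). It changed by −0.69 from the act-Gal4 control and by −0.37 from the P control, and read 7.84 and 7.52 in these males. In the P/act-Gal4 female it did not differ detectably from the controls (change of −0.00, adjusted p = 0.994), so every result for that female is given for an array in which the targeted transcript was not measured as lower. The same array had the testis transcript Mst87F at 6.57, between the female controls (4.84 to 5.21) and the males (9.96 to 10.80). Of 7 testis genes, Mst87F and bam rose in that female and 5 did not pass, while in P/act-Gal4 males Mst87F rose, aly, can and sa fell, and 3 did not pass. For eIF4a, the signal at the 3′ end over that at the 5′ end (log2), a sign of how complete the labelled RNA was, had group means of 3.69 in P/act-Gal4 males and 3.47 in the female, under those of the controls (3.95 to 4.97), and its part in the results was not tested. In whole larvae, fewer cells of a type and less RNA per cell cannot be told apart.

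In short, phm was lower and shd was higher in P/act-Gal4 males. On the single P/act-Gal4 female array phm and 1 Cyp18a1 probeset were lower and 1 shd probeset was higher. Each of these female calls depended on which control was used. Neither nvd, spok, dib nor sad passed the test in either sex.

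**Figure D1:**
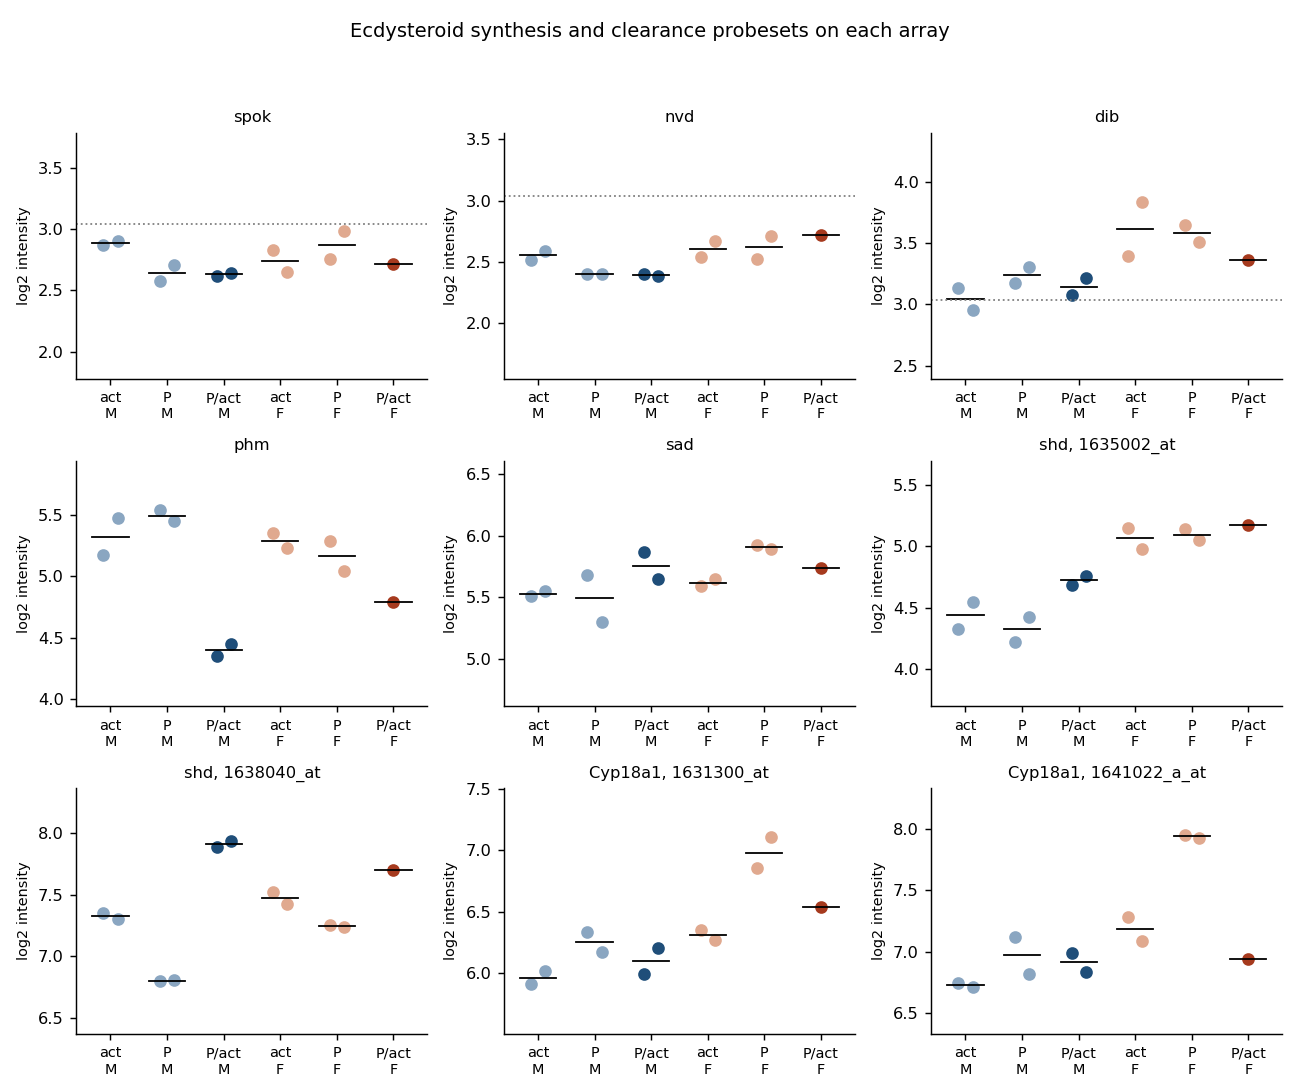
Log2 intensity of the 9 probesets on each of the 11 arrays, by genotype (act, act-Gal4 control; P, P control; P/act, both transgenes) and sex (M, male; F, female). Points are arrays, black bars are group means, every panel spans 2 log2 units, and the dotted line is the background level of 3.04. The P/act-Gal4 arrays of both sexes lie below all controls of their sex for phm and above them for both shd probesets. For the dimmer shd probeset the female array lies above only just (5.17 against 5.15 at most), and its change did not pass the test. The share of all probesets that lie beyond their controls in this way was not counted, so no weight is put on it.

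The earliest steps could not be followed. The Rieske-type oxygenase encoded by nvd takes cholesterol into the pathway, and spok encodes a P450 that acts in the next steps, whose intermediates are poorly known. The nvd probeset 1624634_at read 2.38 to 2.72 and the spok probeset 1638601_at read 2.58 to 2.98 over the 11 arrays. Both were under the background level on every array, 0 of 11 above it, so a change in these genes was not detectable. Their changes in P/act-Gal4 males were −0.09 (adjusted p = 0.518) and −0.13 (adjusted p = 0.330).

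The P450 encoded by phm follows, and hydroxylates the sterol side chain. Probeset 1627188_at, of a gene on chromosome X, read 5.17 and 5.47 in act-Gal4 control males, 5.54 and 5.45 in P control males, and 4.35 and 4.44 in P/act-Gal4 males. Both P/act-Gal4 males lay below all 4 control males. The level fell by 1.01 ± 0.105 on the log2 scale (95% interval −1.24 to −0.78), a 2.02-fold fall (adjusted p = 3e-05). The change was −0.93 from the act-Gal4 control (adjusted p = 0.000158) and −1.10 from the P control (adjusted p = 5.72e-05). With each array left out in turn it lay between −1.09 and −0.94, with adjusted p of 0.00139 at most.

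In females phm read 5.35 and 5.23 in the act-Gal4 control, 5.29 and 5.05 in the P control, and 4.79 on the P/act-Gal4 array. That array lay below all 4 control females and above both P/act-Gal4 males. The fall of 0.44 ± 0.135 (1.36-fold) passed the test narrowly (adjusted p = 0.0478). The call ended without any of 7 arrays: act-Gal4 control female 1 (adjusted p = 0.0831) or 2 (0.0529), P control female 1 (0.0717), P control male 1 or 2 (0.0656 each) and P/act-Gal4 male 1 or 2 (0.0696 each). The change was −0.50 from the act-Gal4 control (adjusted p = 0.0488) and −0.38 from the P control (adjusted p = 0.103). The change in males was more negative than in females by 0.57 ± 0.171, which did not pass the test (adjusted p = 0.0514) but did without act-Gal4 control male 1 (0.0324) or P control female 1 (0.0240). The genes Akh and jhamt mark the other cells of the ring gland. Akh did not pass the test, at −0.03 (adjusted p = 0.857) in males and −0.23 (0.226) in females. The mean of jhamt was under the background level in all 6 groups, so a change in it was not detectable. The summed linear intensity of the pair, to which jhamt adds only a background reading, was 26.0 to 29.2 in control males. The males with both transgenes gave 25.2 to 26.4. Female sums were 30.2 to 32.2 in the act-Gal4 control, 40.1 to 42.2 in the P control and 31.7 on the P/act-Gal4 array.

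Another side-chain hydroxylase is encoded by dib, which acts after phm. The dib probeset 1629265_at was dim, at 2.96 to 3.31 in control males, 3.07 and 3.22 in males with both transgenes, 3.40 to 3.84 in control females and 3.36 on the P/act-Gal4 female array. It was above the background level on 10 of 11 arrays and above its array's median on 1 of 11. The P/act-Gal4 males lay among the control males, and the female lay just below the control females. The change was 0.00 ± 0.12 in males (95% interval −0.26 to 0.26, adjusted p = 0.995) and −0.24 ± 0.155 in females (−0.58 to 0.10, adjusted p = 0.351).

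The final step in the gland, the last hydroxylation that yields ecdysone, is catalysed by the product of sad. Probeset 1626485_at read 5.51 and 5.55 in act-Gal4 control males, 5.68 and 5.30 in P control males, and 5.86 and 5.65 in P/act-Gal4 males. The groups overlapped, since P control male 1 read higher than P/act-Gal4 male 2. The change of 0.25 ± 0.108 did not pass the test (95% interval 0.01 to 0.48, adjusted p = 0.115), but without P control male 1 it was 0.34 and did (adjusted p = 0.0207). In females sad read 5.59 and 5.64 in the act-Gal4 control, 5.92 and 5.89 in the P control, and 5.74 on the P/act-Gal4 array, which lay between the control genotypes. The change there was −0.02 ± 0.139 (95% interval −0.33 to 0.28, adjusted p = 0.932).

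The enzyme that turns ecdysone into the active hormone in peripheral tissues is encoded by shd. Its probeset 1638040_at read 7.35 and 7.30 in act-Gal4 control males, 6.80 and 6.80 in P control males, and 7.89 and 7.94 in P/act-Gal4 males. The 3 male genotypes did not overlap, and both transgenes together gave the highest values. How many of all probesets do the same was not counted. The level rose by 0.85 ± 0.0739 (95% interval 0.69 to 1.01), a 1.80-fold rise (adjusted p = 8.27e-06). The change was 0.59 from the act-Gal4 control (adjusted p = 0.000332) and 1.11 from the P control (adjusted p = 3.63e-06), which differ by over 1.5 times on the log2 scale because the controls themselves differed.

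In females 1638040_at read 7.52 and 7.42 in the act-Gal4 control, 7.25 and 7.24 in the P control, and 7.70 on the P/act-Gal4 array. The P/act-Gal4 array was again the highest of its sex. The rise of 0.34 ± 0.0954 (1.27-fold, adjusted p = 0.0297) was smaller than in males by 0.51 ± 0.121 (adjusted p = 0.0185). The call in females ended without act-Gal4 control female 2 (adjusted p = 0.0602), and that of the sex difference without P/act-Gal4 male 1 (0.0521) or 2 (0.0681). The change in females was 0.23 from the act-Gal4 control (adjusted p = 0.191) and 0.46 from the P control (0.00956).

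The dimmer shd probeset, 1635002_at, read 4.22 to 4.55 in control males and 4.69 and 4.76 in P/act-Gal4 males, which did not overlap. It rose by 0.34 ± 0.0973 (1.27-fold, adjusted p = 0.0197). Without 1 of 4 arrays this call ended: act-Gal4 control male 1 (adjusted p = 0.0687), P control male 1 (0.0610), P/act-Gal4 male 1 (0.0749) or P/act-Gal4 male 2 (0.157). Set against the driver control alone, the difference was 0.28, which did not pass (adjusted p = 0.0848). In females the readings were 4.98 to 5.15 in the controls and 5.17 on the P/act-Gal4 array (change 0.09 ± 0.126, adjusted p = 0.676). Both shd probesets read above all controls in each sex, for 1635002_at in the female only just (5.17 against 5.15 at most). The share of all probesets that lie beyond their controls in this way was not counted. The values of the shd pair correlated at only 0.455 over the 11 arrays.

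Some markers of tissues that express shd also moved, in both directions. In males 3 of 4 gut genes (alphaTry, betaTry and Jon65Aiii, which encode digestive proteases) rose and Jon99Ci fell, with a summed linear intensity of 6197 to 7172 in the controls and 9019 to 9021 in P/act-Gal4. In females the gut sum was 8554 to 8980 in the controls and 8135 in P/act-Gal4, where alphaTry rose and Jon65Aiii fell. Of 3 measured fat body genes (Lsp2, Fbp1 and Fbp2), 0 passed limma's test in males, where the sum was 17720 to 22171 in controls and 20268 to 20978 in P/act-Gal4, while Fbp1 and Fbp2 rose in the female. The female rises followed the choice of control: Fbp1 read 12.90 in the P/act-Gal4 female, with means of 12.77 in the act-Gal4 control and 11.31 in the P control, and Fbp2 read 13.08 with means of 13.08 and 12.17. All 3 were higher in act-Gal4 control females than in P control females. The part of these tissues in the shd values was not tested.

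Clearance of the hormone runs through the P450 encoded by Cyp18a1, whose gene lies next to phm on chromosome X with 0 annotated genes between them. Probeset 1641022_a_at read 7.28 and 7.09 in act-Gal4 control females, 7.95 and 7.93 in P control females and 6.94 on the P/act-Gal4 array. The P/act-Gal4 array was the lowest of the females, and the P control stood well above the rest. The level fell by 0.62 ± 0.129 (1.54-fold, adjusted p = 0.00688). This average hides unequal parts: the change was −0.995 from the P control (1.99-fold, adjusted p = 0.00043) and −0.24 from the act-Gal4 control (adjusted p = 0.323).

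The other Cyp18a1 probeset, 1631300_at, read 6.35 and 6.27 in act-Gal4 control females, 6.86 and 7.10 in P control females and 6.54 on the P/act-Gal4 array. Here the array with both transgenes lay between the controls, and the change was −0.11 ± 0.129 (adjusted p = 0.639). The change from the P control was −0.44 (adjusted p = 0.049986) and from the act-Gal4 control 0.23 (0.354), so the probesets gave opposite signs against the act-Gal4 control. Their values correlated at 0.900 over the 11 arrays.

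In males neither Cyp18a1 probeset passed the test. Probeset 1641022_a_at read 6.71 to 7.12 in the controls and 6.99 and 6.83 in P/act-Gal4, with a change of 0.06 ± 0.1 (95% interval −0.16 to 0.28, adjusted p = 0.709). Probeset 1631300_at read 5.91 to 6.33 and then 5.99 and 6.21, with a change of −0.01 ± 0.1 (−0.23 to 0.21, adjusted p = 0.975). The P/act-Gal4 males lay within the range of the control males for both. The effect on 1641022_a_at was higher in males than in females by 0.68 ± 0.163 (adjusted p = 0.0188), and without P/act-Gal4 male 1 that call ended (adjusted p = 0.0886). For 1631300_at the difference was 0.10 (adjusted p = 0.789).

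**Figure D2:**
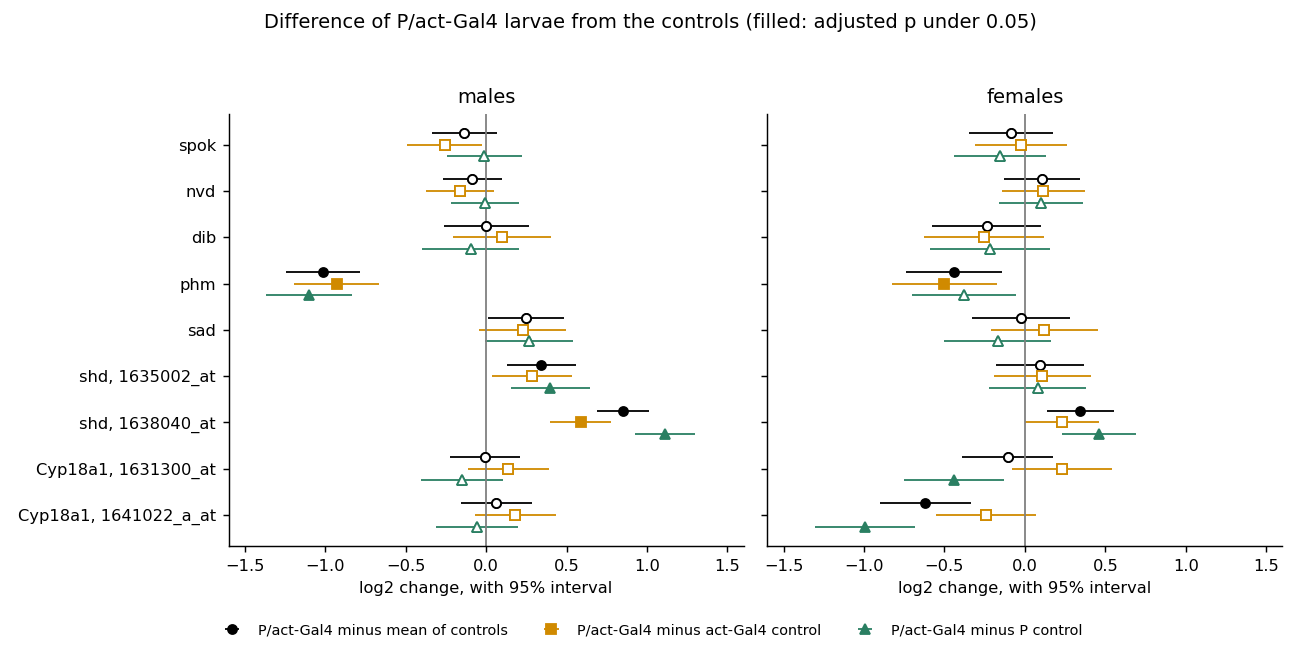
Log2 change of P/act-Gal4 larvae from the mean of both controls (circles), the act-Gal4 control (squares) and the P control (triangles), in males and females, with 95% intervals and filled symbols where adjusted p is under 0.05. In males phm lies near −1 against either control, and shd 1638040_at lies above 0 against each; Cyp18a1 1641022_a_at in females moves from −0.24 to −0.995 with the choice of control.

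Over the 9 probesets, 3 passed the test in males (phm lower, both shd higher), where 29.2% of all probesets passed, 16.3% higher and 12.9% lower. In females 3 passed (phm and Cyp18a1 1641022_a_at lower, shd 1638040_at higher), beside 15.9% of all, 9.2% higher and 6.69% lower. For the difference between the sexes in the effect, 2 passed, both higher in males, beside 11.9% of all in either direction and 5.96% in that one. With a single control genotype, 2 passed in males against the act-Gal4 control (28.1% of all) and 3 against the P control (25.7%), and in females 1 (12.4%) and 3 (19%). The number of all probesets called in males fell to 3392 of 18769 without P/act-Gal4 male 2, from 5482, and the number called for the difference between sexes to 1386 without P/act-Gal4 male 1, from 2232. The median change of the 9 was 0.00 in males and −0.09 in females, beside −0.03 and −0.04 over all probesets. The genes did not move as one: phm and shd, which act in different tissues, went in opposite directions. In the same gland as phm, sad did not pass. Neither did dib, but its male control means of 3.05 and 3.24 lay close to the background level of 3.04. A fall in dib was therefore hardly detectable.

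Other P450 genes give a scale for these sizes. Of 79, each taken at its brightest probeset, 24 rose and 13 fell in P/act-Gal4 males, and 7 rose and 16 fell in the female. In males, 0 of the 79 had a more negative change than phm, and 7 had a more positive change than shd 1638040_at. In females 16 had a more negative change than phm, 8 a more negative one than Cyp18a1 1641022_a_at, and 9 a more positive one than shd 1638040_at.

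In control larvae of both genotypes together, 6 of the 9 probesets were lower in males than in females, where 60.7% of all probesets differed in either direction and 44.4% were lower in males. The differences, male minus female, were −0.71 ± 0.0817 and −0.54 ± 0.0819 for Cyp18a1 (1641022_a_at and 1631300_at), −0.70 ± 0.0794 and −0.29 ± 0.0603 for shd (1635002_at and 1638040_at), −0.45 ± 0.0977 for dib and −0.25 ± 0.0878 for sad. Their adjusted p ran from 1.66e-05 for shd 1635002_at to 0.0272 for sad. The individual control arrays of the sexes did not overlap for dib and shd 1635002_at, and overlapped for the others. The share of all probesets without such overlap was not counted, so no weight is put on it. The sad call ended without act-Gal4 control male 1 (adjusted p = 0.0719) or 2 (0.0574), act-Gal4 control female 2 (0.0659), P control male 2 (0.109) or P control female 1 (0.0527).

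Only phm among the members had a higher mean in control males, by 0.18 ± 0.0855 (95% interval −0.01 to 0.37), which did not pass (adjusted p = 0.0855). It did pass without act-Gal4 control male 1 (0.25, adjusted p = 0.0328) or P control female 1 (0.24, adjusted p = 0.0344). Of the 79 other P450 genes, 64 were lower and 3 higher in control males, and 3 had a more positive difference than phm. The median difference was −0.29 over the 9 probesets and −0.17 over all. Scaling matters here: of the probesets called, 26.8% were higher in males as deposited, and 15.3% after all arrays were shifted to a common median, which moved the median of all to −0.33. The phm difference was then 0.02.

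**Figure D3:**
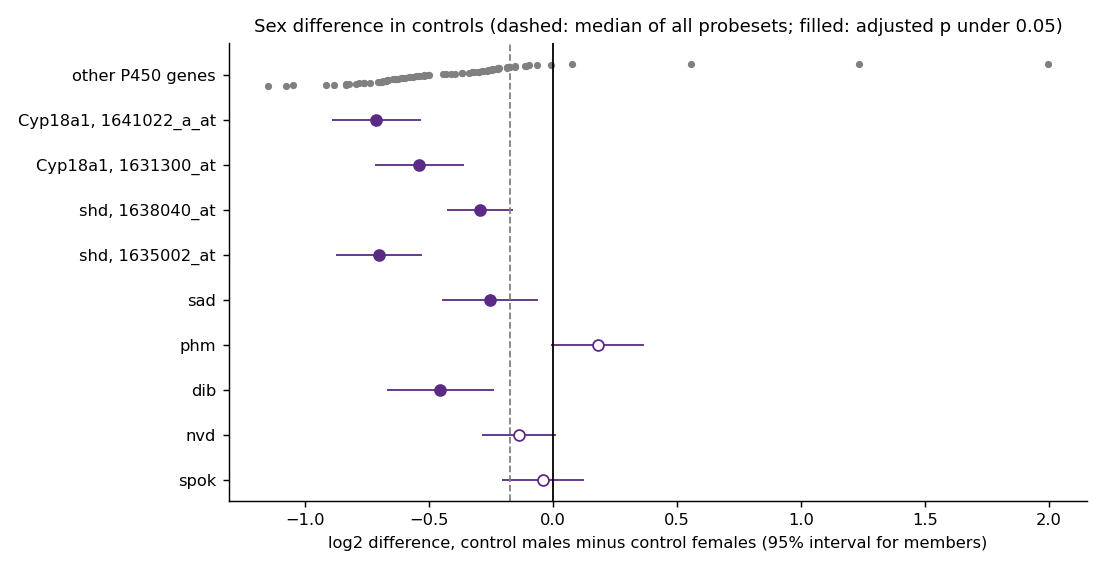
Log2 difference between control males and control females for each member probeset, with 95% intervals and filled symbols where adjusted p is under 0.05. Grey points are the 79 other P450 genes, and the dashed line is the median of all probesets, −0.17. Of the member probesets, phm alone lies to the right of 0, at 0.18.

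The control genotypes differed from each other in some members. Among males 1 of the 9 probesets passed, beside 18.4% of all (10% higher in the act-Gal4 control): shd 1638040_at was higher in the act-Gal4 control than in the P control by 0.53 ± 0.0853 (adjusted p = 0.00129). Among females 2 passed, beside 16.6% of all (8.75% lower in the act-Gal4 control), and both were of Cyp18a1. Probesets 1641022_a_at and 1631300_at were lower in the act-Gal4 control by 0.75 ± 0.116 (adjusted p = 0.000823) and 0.67 ± 0.116 (adjusted p = 0.00189). The count of all probesets called among males, 3455, was 1901 without act-Gal4 control male 1, 1946 without act-Gal4 control male 2 and 2036 without P control male 2. For phm the controls differed by −0.17 in males (adjusted p = 0.407) and 0.12 in females (adjusted p = 0.568).

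Ordered by group mean, phm ran from P control males (5.49) through act-Gal4 control males (5.32), act-Gal4 control females (5.29) and P control females (5.17) to the P/act-Gal4 female (4.79) and P/act-Gal4 males (4.39). The 4 control groups overlapped each with the next, and the last steps did not. For shd 1638040_at the order was P/act-Gal4 males (7.91), the P/act-Gal4 female (7.70), act-Gal4 control females (7.47), act-Gal4 control males (7.33), P control females (7.24) and P control males (6.80), and no neighbours overlapped. For Cyp18a1 1641022_a_at the P control females (7.94) stood apart at the top and act-Gal4 control males (6.73) at the bottom. The groups between them, from act-Gal4 control females (7.19) to P/act-Gal4 males (6.91), overlapped each with the next. These groups hold 2 arrays at most, and the share of all probesets with such gaps was not counted, so no weight is put on them.

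Of 10 measured partners of the enzymes, 4 rose and 0 fell in P/act-Gal4 males by limma, and 3 rose and 0 fell in the female, beside 29.2% and 15.9% of all probesets called in these comparisons. Of all probesets, 16.3% rose in males and 9.2% in the female. The dehydrogenase gene sro, which acts in the same early steps as spok, read 6.31 and 6.34 in act-Gal4 control males, 5.94 and 5.78 in P control males, and 6.83 and 6.79 in P/act-Gal4 males. It rose by 0.72 ± 0.087 (adjusted p = 9.44e-05), and the P/act-Gal4 males lay above all control males. The share of all probesets that do so was not counted. The controls also differed in sro, which was higher in the act-Gal4 control by 0.46 in males (adjusted p = 0.00739) and 0.41 in females (0.0165). In the female it read 7.63 against 6.32 to 6.89 in the controls, a rise of 1.03 ± 0.112 (adjusted p = 9.51e-05). Start1, which encodes a sterol-binding protein of the StAR family, rose by 0.58 in males (adjusted p = 0.000302) and 0.50 in the female (0.00849), and Npc1a, which encodes a sterol trafficking protein, by 0.54 (0.00085) and 0.62 (0.00401). Among control females Start1 was itself higher in the act-Gal4 control than in the P control, by 0.37 (adjusted p = 0.0209). The zinc finger gene mld, whose product is needed for expression of nvd and spok, rose by 0.43 in males (0.0177). The median change over the list was 0.03 in males and 0.24 in females.

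Of 7 genes that act on the gland, 3 rose in males and 2 in the female, beside the same 16.3% and 9.2% of all. Smox, InR and vvl rose in males, by 0.89 (adjusted p = 9.12e-05), 0.72 (0.000174) and 0.31 (0.00844), and Smox and InR rose in the female, by 0.60 (0.012) and 0.62 (0.00523). They encode a Smad protein of activin signalling, the insulin receptor and a POU-domain factor, and all of them also act in other tissues. InR was itself lower in the act-Gal4 control than in the P control, by 0.94 in males (0.000138) and 0.59 in females (0.00339). The median was −0.07 in males and 0.19 in females. Ptth, the gene of the brain hormone that stimulates the gland, did not pass in either sex. Its receptor gene tor had means under the background level in all 6 groups, so a change in it was not detectable.

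Of 4 genes of uptake, export and clearance, 3 rose in males and 1 in the female, beside 16.3% and 9.2% of all probesets that rose, with medians of 0.37 and 0.24. E23, which encodes an ABC transporter that limits the ecdysone response, read 5.87 to 6.41 in control males and 7.16 and 7.47 in P/act-Gal4 males, and 5.62 to 6.83 in control females and 7.91 in the P/act-Gal4 female. No control overlapped with P/act-Gal4 in its sex, but the share of all probesets without such overlap was not counted. The controls differed among females, with E23 means of 6.80 in the act-Gal4 control and 5.75 in the P control. That difference was 1.05 (adjusted p = 0.000357), so the size of the change in the P/act-Gal4 female depended on the control. E23 rose by 1.18 ± 0.124 in males (adjusted p = 3.28e-05) and 1.63 ± 0.16 in the female (4.66e-05). The importer gene Oatp74D rose by 0.39 in males (0.00451) and the transporter gene Mdr49 by 0.35 (0.00695). EO, the gene of ecdysone oxidase, was at −0.18 in males (0.240) and 0.09 in the female (0.697).

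Of 9 receptor and early response genes, 4 rose and 1 fell in males, and 5 rose and 0 fell in the female, beside 29.2% and 15.9% of all probesets called. The medians were 0.16 and 0.45. The receptor gene EcR rose by 0.50 in males (adjusted p = 0.00862). The regulator genes br (0.75, 0.000112) and ftz-f1 (0.64, 0.000465) also rose, each at its brightest probeset. The name of the list does not mean that all its genes respond early. The ftz-f1 rise followed the choice of control: P/act-Gal4 males had a mean of 7.64, the P control males 7.52 and the act-Gal4 control males 6.49, and the controls differed by −1.03 (adjusted p = 8.36e-05). Eip93F is counted among the rises of both sexes, but its means were under the background level in all 4 control groups (2.34 to 2.65) and just over it in P/act-Gal4 males (3.15) and the female (3.10), so no size is given. For br, 5 probesets gave 2 rises, 1 fall and 2 that did not pass in males. The nuclear receptor gene Eip78C fell by 0.54 in males (0.0035) and rose by 1.88 in the female (6.68e-06), a sex difference that passed (−2.42, adjusted p = 1.25e-05). In control females Eip78C was also higher in the act-Gal4 control than in the P control by 1.92 (1.47e-06). The effect also differed between the sexes at 1 probeset each of Hr4 (−1.27, 0.000966), ftz-f1 (0.90, 0.00393) and vvl (0.55, 0.0123). The other probesets of these genes did not pass. For br the effect was lower in males at 2 of 5 probesets. The larvae were not staged within the instar by the labels, and the salivary glue genes are switched on and then off late in the instar. Of 6 measured, 0 rose and 4 fell in males by limma (median −0.27), and 4 rose and 1 fell in the female (median 0.43). Sgs1 fell most in males, by 2.15, and was the gene that fell in the female, by 0.74. Salivary gland markers summed to 33011 to 43993 in control males, 30523 to 30702 in males of P/act-Gal4, 25616 to 34664 in control females and 39162 in the P/act-Gal4 female. A difference of stage between genotypes was not tested.

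**Figure D4:**
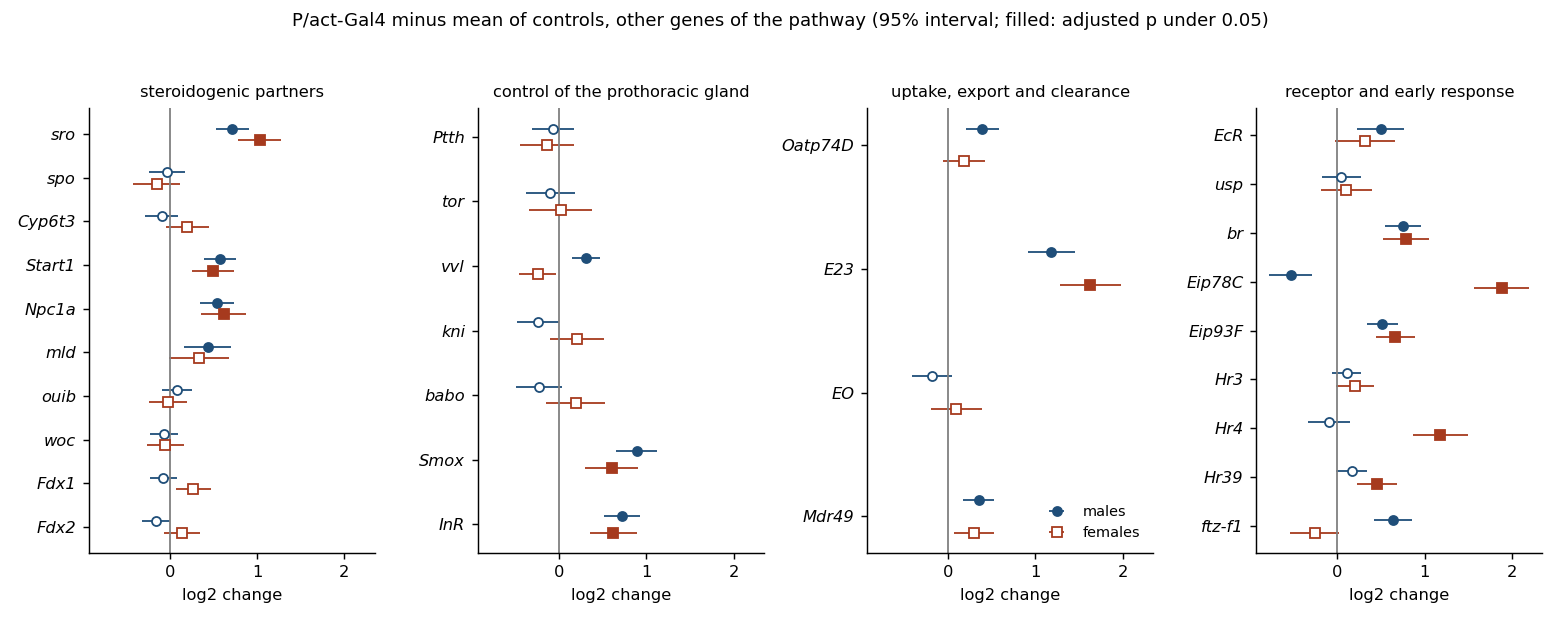
Log2 change of P/act-Gal4 larvae from the mean of both controls for other genes of the pathway, in 4 lists, at the brightest probeset of each gene, with 95% intervals and filled symbols where adjusted p is under 0.05. Circles are males and squares are females. E23 and sro lie above 0 in both sexes, and Eip78C lies below 0 in males and at 1.88 in females.

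The genes whose pattern over the 11 arrays was most like that of a member were ranked by Pearson's r, as a description; the arrays share their groups, so r mainly follows the group means. For phm they were l(2)efl (0.947), MED8 (0.946) and Sgs1 (0.944). For shd 1638040_at they were Tsf1 (0.968), RIC-3 (0.961) and Nox (0.960), and for 1635002_at RecQ4 (0.978), trol (0.966) and TwdlW (0.958). For Cyp18a1 they were MFS1 (0.977), Ag5r2 (0.977) and Tsp42Ef (0.975) with 1641022_a_at, and Ugt304A1 (0.970), B4 (0.969) and Cyp301a1 (0.964) with 1631300_at. For sad they were PCB (0.948), Polr1A (0.900) and Ndae1 (0.885), and for dib nullo (0.978), Octbeta1R (0.947) and tj (0.939). None of these genes is among the 7 members.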

How the data were processed

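Total RNA of whole larvae was hybridised to 11 Affymetrix Drosophila Genome 2.0 arrays. The deposited intensity values were made by the authors with RMA, per the submitters' processing notes, and are on a linear scale, judged from the values. They were used as deposited, as log2, with no further normalization or filter. Of 18952 probesets, 183 control probesets were left out, and of 18769 tested 13647 name 1 gene, 402 several and 4720 none. The fit, by lmFit and eBayes of limma 3.58.1 (R 4.3.3), held 1 mean for each of the 6 groups over all arrays, with Benjamini-Hochberg adjustment over all probesets. P/act-Gal4 was compared with the mean of both controls. The P/act-Gal4 female group has 1 array, so its spread is assumed to be that of the other groups. Groups followed the genotype, gender and title labels; the strain and description labels disagree with these for some arrays and were not used.

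All 9 member probesets are reported. Genes outside the members were named by list, past the test, and P450 genes by symbols of the form Cyp, digits and a lower-case letter, which leaves out cyclophilins and is narrower than first planned. The members and lists were chosen with earlier results of these data known. No list was tested as a set. Genome sequence and promoters were not used here. The alternatives were a repeated quantile normalization, a common median (added after seeing the data), limma with trend and robust settings, a background filter, 1 probeset per gene, each control alone, pooled controls, 1 sex only, and leaving out each array. The script was tested on simulated data. The number of arrays limits the precision.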

Additional observations from a re-analysis of the deposited data

Results flagged for a closer look

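The effect of both transgenes differed between the sexes for 2 member probesets by limma's interaction test. For shd 1638040_at the change from the controls was higher in males than in females by 0.51 (adjusted p = 0.0185), with a rise of 0.85 in males and of 0.34 in the P/act-Gal4 female. For Cyp18a1 1641022_a_at it was higher in males by 0.68 (adjusted p = 0.0188), with a change of 0.06 in males (adjusted p = 0.709) and a fall of 0.62 in the female. The female side of both rests on 1 array. No group is large enough for a search for single deviating arrays.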

How the results depend on the processing

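No call of a member turned its direction. The counts of changed probesets moved by over 1.5 times as follows. With both controls pooled, 3336 of all probesets were called in males (5482 as reported), 1019 of all in females (2982 as reported), and 0 members in females by limma (3 as reported; 2 had an unadjusted p under 0.05). With arrays of that sex only, 1517 of all and 1 member were called in females, and with the act-Gal4 control alone 1 member. With 1 probeset per gene, 1 member instead of 2 differed between control females. Leaving out each array in turn gave, of members and of all probesets, 2 to 3 and 3392 to 5905 in males, 1 to 3 and 2613 to 3503 in females, 0 to 3 and 1386 to 2594 for the sex difference of the effect (3 members had an unadjusted p under 0.05 in the fit with 0), 5 to 7 and 9607 to 11398 for control males against females, 1 to 1 and 1901 to 3842 between control males, and 2 to 2 and 2180 to 3110 between control females. The phm fall in females also ended with pooled controls (adjusted p = 0.125), 1 sex only (0.119) and a common median (0.0549), and the shd 1638040_at rise in females with pooled controls (0.165), 1 sex only (0.137) and repeated quantile normalization (0.0806). The Cyp18a1 1641022_a_at fall ended with pooled controls (0.281). The phm sex difference passed with repeated quantile normalization (0.0363), a common median (0.0316), limma's trend and robust settings (0.0380), the background filter (0.0430), 1 probeset per gene (0.0423), and without act-Gal4 control male 1 (0.0324) or P control female 1 (0.0240). No paired analysis was possible because the labels carry no replicate numbers. The dim dib, and nvd and spok below background, limit what can be seen of those genes.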
